A study of Mus musculus with 7 samples.

Results

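The eosinophil-associated ribonucleases and angiogenins described here are 7 genes, Ear1, Ear2, Ear6, Ear10, Ang, Ang2 and Ang4, picked by symbol from the 31253 genes of the count tables. They were picked with their levels in alveolar macrophages and monocytes, in the libraries Smad4iko 3 and 4 and between the genotypes already known, so these levels are given as descriptions, without p-values. Lung cells came from 4 Smad4iko mice (Smad4fl/fl with Rosa26-creERT2, a tamoxifen-activated Cre recombinase driven in nearly all cell types) and 3 Smad4fl/fl littermates without Cre. Tamoxifen (75 mg/kg into the peritoneum, 5 doses, the first on postnatal day 21 and the last on day 26) was given to every mouse, so the controls share the drug and the floxed alleles. At 8 weeks of age the peripheral lung was digested with collagenase, freed of red cells and profiled by droplet-based 3′ RNA sequencing, with 1 library per mouse.

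The products of these genes are small secreted enzymes of the RNase A superfamily, which cut RNA and are held in check inside cells by the ribonuclease inhibitor Rnh1. The Ear genes are the rodent counterparts of the human eosinophil proteins RNASE2 and RNASE3, which act against viruses and bacteria, and in mice they have multiplied by gene duplication. Angiogenins cleave transfer RNA and promote vessel growth, and mouse Ang4 is known as a microbicidal protein of Paneth cells in the gut. Alveolar macrophages, the resident phagocytes of the airspace, are known in mice to express Ear1 and Ear2.

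All 7 genes lie on chromosome 14, in 2 groups (mm10, GENCODE M21). Ear1 (chr14:43818765-43875517, minus strand), Ear10 (chr14:43922720-43923559, minus strand) and Ear2 (chr14:44102654-44103534, plus strand) fall within 285 kb. Ang (chr14:51091150-51102009, plus strand), Ang2 (chr14:51195324-51199148, minus strand), Ang4 (chr14:51763878-51773590, minus strand) and Ear6 (chr14:51853699-51854643, plus strand) fall within 763 kb. Ang lies inside the span of Rnase4 on the same strand, the Ear1 span holds the pseudogenes Ear-ps9 and Ear-ps12, and Ear2 overlaps Gm49101 on the other strand.

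The promoters of Ear1, Ear2 and Ear10 are shown because these near-identical copies were the 3 most abundant members in alveolar macrophages, while monocytes held little Ear10, that of Ear6 as the distant Ear copy, and that of Ang as the gene with another cell distribution. Each spans 300 bases, ending 50 bases past the RefSeq start of the gene (GRCm38.p6), 5′ to 3′, and capitals mark the letters CCAAT on the strand shown. RefSeq and GENCODE starts can differ. The Ear1 window lies inside the GENCODE span of Ear1, away from its 5′ end. The Ang window ends before the GENCODE start of Ang and holds that of Rnase4.
Ear1 promoter, chr14:43819590-43819889, minus strand: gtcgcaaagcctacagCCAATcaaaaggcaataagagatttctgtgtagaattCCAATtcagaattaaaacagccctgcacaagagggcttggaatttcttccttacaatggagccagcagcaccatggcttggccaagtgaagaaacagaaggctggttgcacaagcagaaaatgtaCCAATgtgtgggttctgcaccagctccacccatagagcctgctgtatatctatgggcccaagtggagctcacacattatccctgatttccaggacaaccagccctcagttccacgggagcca
Ear2 promoter, chr14:44102404-44102703, plus strand: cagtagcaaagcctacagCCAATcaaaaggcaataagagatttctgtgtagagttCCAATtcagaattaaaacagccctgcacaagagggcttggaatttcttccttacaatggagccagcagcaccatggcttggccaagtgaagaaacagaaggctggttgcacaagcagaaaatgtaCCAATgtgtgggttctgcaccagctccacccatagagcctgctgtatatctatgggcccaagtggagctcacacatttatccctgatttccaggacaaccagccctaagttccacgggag
Ear10 promoter, chr14:43923547-43923846, minus strand: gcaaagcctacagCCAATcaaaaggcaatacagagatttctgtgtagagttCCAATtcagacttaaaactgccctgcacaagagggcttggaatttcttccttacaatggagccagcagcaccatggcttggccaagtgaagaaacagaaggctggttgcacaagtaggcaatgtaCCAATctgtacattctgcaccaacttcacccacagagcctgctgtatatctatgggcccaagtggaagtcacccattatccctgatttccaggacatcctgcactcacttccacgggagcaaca
Ear6 promoter, chr14:51853518-51853817, plus strand: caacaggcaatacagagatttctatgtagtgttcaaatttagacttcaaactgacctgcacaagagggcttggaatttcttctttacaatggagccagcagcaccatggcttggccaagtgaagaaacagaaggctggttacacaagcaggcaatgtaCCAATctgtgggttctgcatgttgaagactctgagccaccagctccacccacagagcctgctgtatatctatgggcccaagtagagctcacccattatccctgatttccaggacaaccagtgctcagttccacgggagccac
Ang promoter, chr14:51090827-51091126, plus strand: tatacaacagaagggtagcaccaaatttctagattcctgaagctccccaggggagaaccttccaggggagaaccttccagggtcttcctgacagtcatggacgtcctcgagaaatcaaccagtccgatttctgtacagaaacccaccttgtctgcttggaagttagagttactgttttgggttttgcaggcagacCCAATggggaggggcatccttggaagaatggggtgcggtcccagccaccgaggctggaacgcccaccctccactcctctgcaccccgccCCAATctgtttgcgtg
The Ear1 and Ear2 promoters were identical at 97.0% of aligned positions, Ear1 and Ear10 at 91.4%, and Ear2 and Ear10 at 89.5%. Ear6 matched these at 79.3% to 81.2%, while Ang and Ang4 matched each other and the Ear genes at 48.5% to 52.2%. Ang2 had no entry among the RefSeq promoters and was not compared. The letters CCAAT, searched on both strands, occurred 3 times in Ear1, Ear2 and Ear10, once in Ear6 and 2 times in Ang, and were absent from the Ang4 window. Of all 32851 RefSeq promoters of this length, 37.4% held CCAAT at least once. The letters TTGCNNAA, a C/EBP-type motif, were present in Ear1, Ear2 and Ear10 and in 10.8% of all promoters. TGANTCA, an AP-1 motif, was present in Ang4 and in 7.81% of all promoters. None of the 6 windows held TATAAA (the TATA box), GAGGAAG (a PU.1-type core) or the SMAD palindrome GTCTAGAC, which 13.6%, 13.6% and 0.213% of all promoters hold.

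The coding sequences of the Ear genes are close enough to bear on how reads were counted. Ear2 and Ear10 were identical at 97.0% of aligned coding positions, Ear1 and Ear2 at 95.3%, Ear1 and Ear10 at 94.7%, and Ear6 matched the other Ear genes at 87.6% to 87.8%. The angiogenins matched each other at 85.1% to 88.0%. In the last 400 bases of the transcripts, where 3′ reads fall, all windows of 150 bases (the read length) were unique to the gene among annotated transcripts for every member but Ear1, where 94.8% were. With windows of 90 bases, as after trimming, 68.5% were unique in Ear1, 84.6% in Ear10 and 98.7% in Ear2, the rest being shared among these genes and pseudogenes, while Ear6, Ang, Ang2 and Ang4 kept all windows unique. Counts of Ear1, Ear10 and Ear2 are therefore the ones that shared reads could mix, and how shared reads were assigned is not given in the sources used here.

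The 7 libraries held 46449235 to 66557262 UMIs (unique molecular identifiers, 1 per captured RNA molecule), and 49671 cells were kept, 6378 to 8142 per library. Any pair of libraries shared 12 to 29 cell barcodes, at most 0.377% of the smaller library. In alveolar macrophages Smad4 itself was at 41.2, 38.2, 26.8 and 33.2 CPM (a gene's UMIs as a proportion of all UMIs of the class in that library, scaled up by a constant) in Smad4iko 1 to 4, against 44.6, 41.8 and 43.7 CPM in Smad4fl/fl 1 to 3. The groups did not overlap, the nearest libraries being Smad4iko 1 at 41.2 CPM and Smad4fl/fl 2 at 41.8 CPM. Smad4 was not among the genes called for genotype in this class, which are given below. The share of all genes with every Smad4iko library below every control was not computed, so nothing is read from this. A 3′ count also need not read the deleted part of the gene, which the labels do not name. In non-classical monocytes the groups overlapped, at 38.4 to 74.1 CPM in Smad4iko and 40.8 to 91.4 CPM in Smad4fl/fl. Smad4iko 3 and 4 stood apart from the other 5 libraries: 89.4% and 84.4% of their alveolar macrophages fell into a cluster that held 1.77% to 5.42% of those of the others. The log2 differences between genotypes in alveolar macrophages and non-classical monocytes are given with and without both libraries.

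Cells named alveolar macrophages by their markers (6192 cells, 652 to 1180 per library) held nearly all RNA of 6 of the 7 members. Of the 13 markers used to name it, 11 were highest in this class, the exceptions being Fabp4 and Car4, which were higher in endothelium. Here and in the classes below, these are the markers that gave the name, so their count is no separate support for it. Alveolar macrophage shares of all UMIs of a member in kept cells are given as means over 7 libraries. They were 95.1% ± 4.12 (SD) for Ear1, 94.0% ± 5.73 for Ear2 and 94.2% ± 3.55 for Ear6. Those of Ear10, Ang2 and Ang4 were 96.9% ± 1.69, 97.8% ± 1.34 and 96.6% ± 1.80. The shares of Ear1, Ear2 and Ear6 were lowest in Smad4iko 3, at 86.8%, 81.8% and 87.8%, the library with the most non-classical monocytes. Ang differed, with 28.9% ± 12.8 of its UMIs in alveolar macrophages, over 6.96% to 44.6% by library. For scale, alveolar macrophages were 9.80% to 17.0% of the kept cells of a library. Their median UMIs per cell lay above that of all kept cells in each library. No cells were named eosinophils, so there was no such class in which their 9 markers could lead. Of these markers, Epx had 0 UMIs, and Prg2 and Prg3 had 112 and 3 UMIs in all kept cells. Siglecf was highest in alveolar macrophages and Adgre1 in interstitial macrophages.

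**Figure D1:**
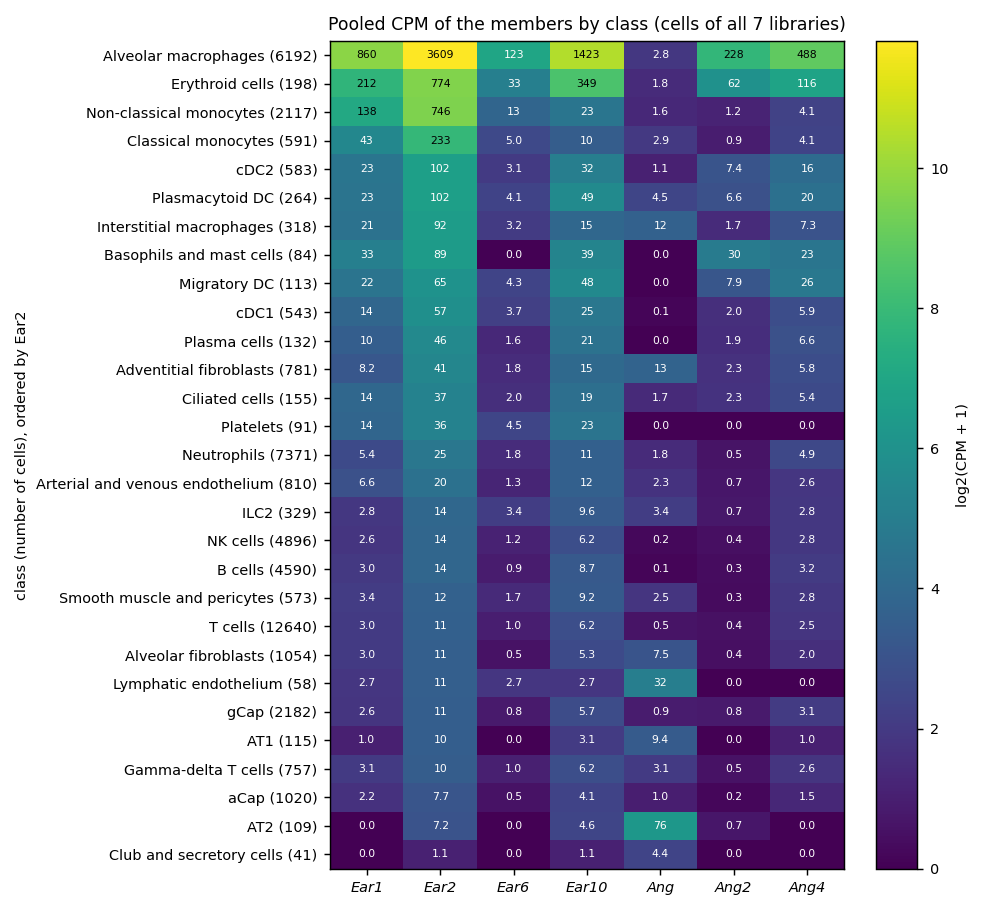
Pooled level of each member (columns) in each class (rows, with the number of cells, ordered by Ear2), as log2(CPM + 1) in colour and CPM in print. Alveolar macrophages lead for 6 members, with Ear2 at 3609 CPM, and AT2 cells lead for Ang, at 76.3 CPM.

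Within alveolar macrophages the members differed widely in level. Ear2 was highest at 3609 CPM over all libraries, followed by Ear10 at 1423, Ear1 at 860.1, Ang4 at 488, Ang2 at 228, Ear6 at 123 and Ang at 2.82 CPM. These levels are per UMI total and not per length, which a 3′ count does not need. This order held within each of the 7 libraries, while the ranges over libraries overlapped between all neighbours in it except Ear6 and Ang. With every cell thinned to 4000 UMIs, which kept 5906 of 6192 cells, Ear2 was detected in at least 98.6% of the cells of each library, Ear10 in 90.2% to 99.2%, Ear1 in 75.0% to 98.6%, Ang4 in 64.3% to 89.2%, Ang2 in 35.4% to 71.0%, Ear6 in 21.0% to 57.1% and Ang in 0.860% to 2.17%. Unthinned, Ear2 was found in at least 98.1% and Ear6 in 48.0% to 88.8% of the cells of a library.

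Ear1 in alveolar macrophages was 821, 801, 1412 and 1480.2 CPM in Smad4iko 1 to 4, against 556, 718 and 502 CPM in Smad4fl/fl 1 to 3. All 4 Smad4iko libraries lay above all 3 controls, Smad4iko 3 and 4 farthest, and the log2 difference of Smad4iko over Smad4fl/fl was 0.85 ± 0.23 (SE, edgeR). Ear6, the least expressed Ear gene, was 124, 124, 189 and 224 CPM in Smad4iko, against 90.3, 60.5 and 80.8 CPM in Smad4fl/fl. Again the groups did not overlap, with a log2 difference of 1.01 ± 0.22.

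Ear2, the most expressed member, was 3392, 3304, 4802 and 4907 CPM in Smad4iko 1 to 4, against 2156, 4475 and 2691 CPM in Smad4fl/fl 1 to 3. The control Smad4fl/fl 2 lay among the Smad4iko libraries, and the log2 difference was 0.32 ± 0.25. It was 0.68 without that library and 0.09 without Smad4fl/fl 1. Ear10 was 1335, 1192, 2299.7 and 2466 CPM in Smad4iko, against 1248, 848 and 1060.1 CPM in Smad4fl/fl. Smad4iko 1 and 2 lay beside the controls, Smad4iko 3 and 4 far above both, and the log2 difference was 0.71 ± 0.25.

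Of the angiogenins, Ang4 was 488, 465, 661 and 761 CPM in Smad4iko 1 to 4, against 504, 355 and 329 CPM in Smad4fl/fl 1 to 3. Ang2 was 238, 205, 341 and 362 CPM in Smad4iko, against 154, 233 and 120.2 CPM in Smad4fl/fl. In both, Smad4iko 3 and 4 were highest. Smad4fl/fl 1 lay above Smad4iko 1 and 2 for Ang4, and Smad4fl/fl 2 lay between them for Ang2. The log2 difference was 0.51 ± 0.19 for Ang4 and 0.68 ± 0.25 for Ang2. Ang was 2.895, 2.37, 4.09 and 2.61 CPM in Smad4iko, against 2.36, 3.60 and 2.21 CPM in Smad4fl/fl, with mixed groups and a log2 difference of 0.06 ± 0.30.

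**Figure D2:**
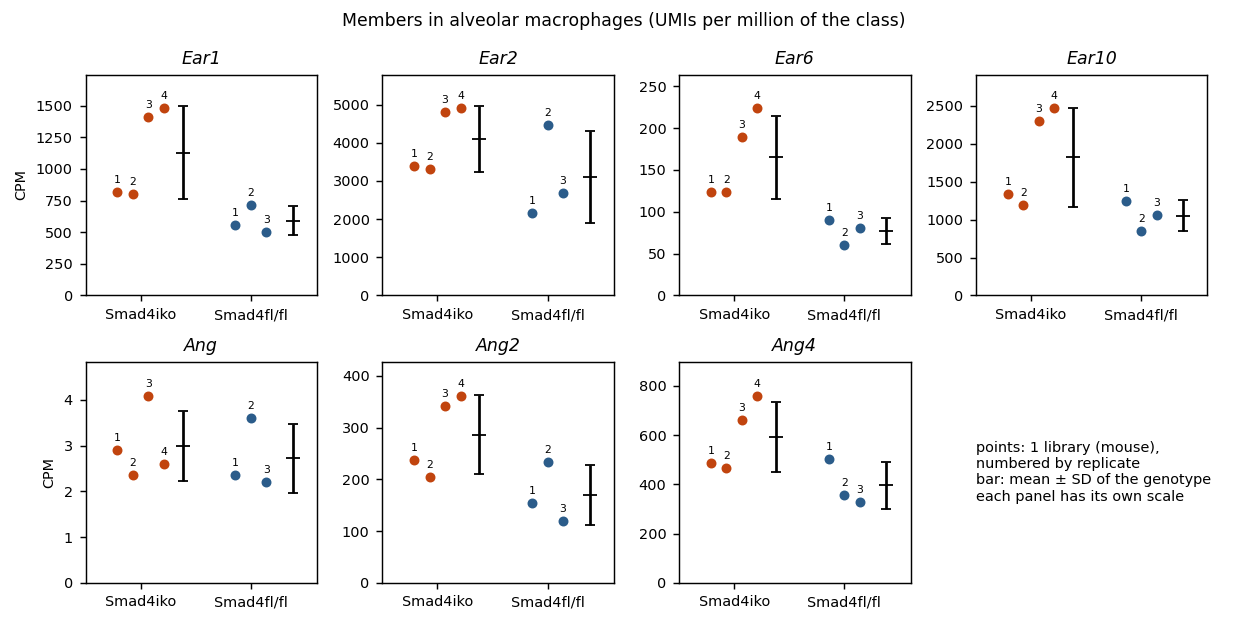
CPM of each member in alveolar macrophages, 1 point per library, numbered by replicate, Smad4iko left of Smad4fl/fl, with the mean and SD of each genotype beside the points. Smad4iko 3 and 4 are highest for every member but Ang; Ear1 and Ear6 alone do not overlap between genotypes.

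Read against all genes, these counts were as follows. All 4 Smad4iko libraries lay above all 3 controls for 2 of 7 members, and for 6.44% of the 11407 genes tested in alveolar macrophages. Smad4iko 3 and 4 both lay above the other 5 libraries for 6 of 7 members, and for 26.6% of genes. At an adjusted p under 0.05 (edgeR quasi-likelihood test, Benjamini-Hochberg) 0 of 7 members and 0.0175% of genes were called, which are Pianp and Klra3, both lower in Smad4iko and named here after their values were seen. At an unadjusted p under 0.05 there were 719 genes. The members were picked with these contrasts known, so nothing is read from their counts. The median log2 difference was 0.68 over the 7 members and -0.00 over all genes.

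Without Smad4iko 3 and 4, the log2 differences of Smad4iko 1 and 2 against the controls were 0.44 for Ear1, 0.67 for Ear6, 0.38 for Ang2, 0.26 for Ang4, 0.25 for Ear10, 0.09 for Ear2 and -0.06 for Ang. Only those of Ear1 and Ear6 came from libraries that all lay above all controls. The share of all genes for which Smad4iko 1 and 2 do so was not computed, so nothing is read from this. Since Smad4iko 3 and 4 are of 1 genotype, what sets them apart and the genotype cannot be told apart within them.

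Alveolar macrophages formed 3 clusters: a larger non-cycling one (4453 cells, led by Plet1, Ereg and Il1a), a smaller non-cycling one (1438 cells, led by Fabp1, Chil3 and Slc7a2) and a cycling one (301 cells, led by Top2a). The clusters were built without the members and the other RNase A genes among the variable genes. Ear1 in the larger cluster was 1262 and 1278 CPM in Smad4iko 3 and 4, from 37 and 56 cells, against 485 to 834 CPM in the other 5 libraries. In the smaller cluster it was 1516 and 1611 CPM in Smad4iko 3 and 4, against 958 to 1325 CPM in the other 5, and in the cycling cluster 645 and 719 CPM, against 322 to 488 CPM. Ear1 was thus higher in both libraries in each cluster, and in each library it was highest in the smaller cluster and lowest in the cycling one. The share of all genes with Smad4iko 3 and 4 above the other 5 libraries was not computed by cluster. The 3 clusters also hold cells of the same mice, so nothing is read from this, for Ear1 or for the members that follow.

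Ear10 showed the same order, at 1881 and 1908 CPM in the larger cluster, 2476 and 2715 CPM in the smaller and 1065 and 1141 CPM in the cycling cluster of Smad4iko 3 and 4. In the other 5 libraries it was 876 to 1358, 1208 to 2112 and 403 to 828 CPM in the same 3 clusters. Ear2, Ear6, Ang2 and Ang4 overlapped between the libraries in at least 1 non-cycling cluster. For Ear6 the smaller cluster held 204 and 244 CPM in Smad4iko 3 and 4, against 92.9 to 234 CPM in the others. For Ear2 the smaller cluster held 5124 and 5347 CPM in Smad4iko 3 and 4, against 3533 to 6653 CPM in the others. Ang4 in the larger cluster was 354 CPM in Smad4iko 3 and 692 CPM in Smad4iko 4, against 321 to 530.0 CPM in the others. Restricted to the larger cluster, the log2 difference of Smad4iko over Smad4fl/fl was 0.72 for Ear1, 0.90 for Ear6, 0.48 for Ear10, 0.40 for Ang2, 0.24 for Ang4 and 0.21 for Ear2.

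**Figure D3:**
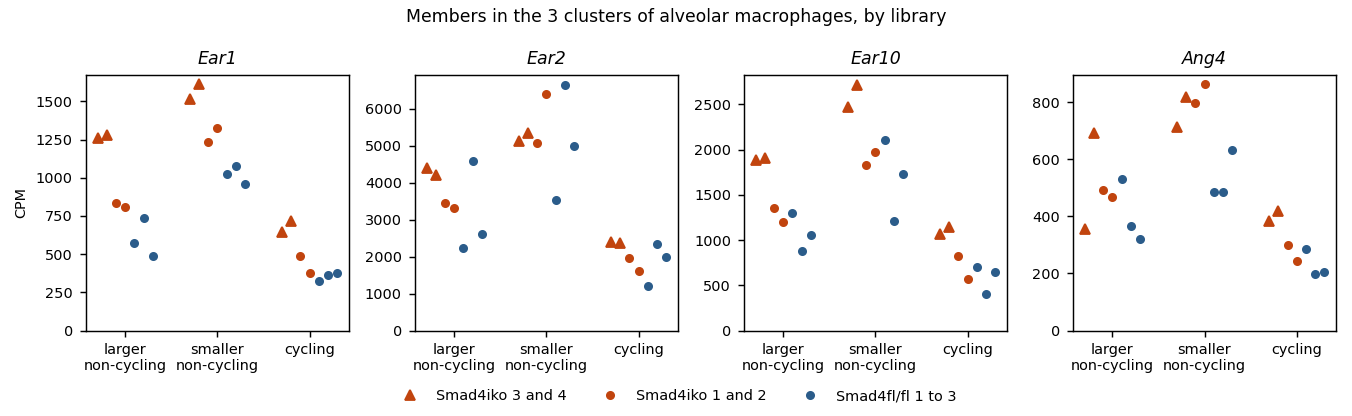
CPM of Ear1, Ear2, Ear10 and Ang4 in the 3 clusters of alveolar macrophages, with Smad4iko 3 and 4 (triangles) left of Smad4iko 1 and 2 and of Smad4fl/fl 1 to 3 (circles), 1 point per library. Ear1 and Ear10 are higher in the triangles in all 3 clusters, and each gene is lowest in the cycling cluster in every library, except Ang4 in Smad4iko 3. The share of all genes that are higher in the triangles in a cluster was not computed.

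Smad4fl/fl 2 had a balance of members of its own. Its ratio of Ear2 to Ear10 UMIs was 5.28, against 2.54, 2.77, 2.09 and 1.99 in Smad4iko 1 to 4 and 1.73 and 2.54 in Smad4fl/fl 1 and 3. Its ratio of Ear1 to Ear10 was 0.847, against 0.600 to 0.672 in Smad4iko and 0.445 and 0.473 in the other controls, and that of Ang2 to Ear10 was 0.275, against 0.147 to 0.178 and 0.113 to 0.124. The neighbour gene Ang5, an angiogenin between Ear10 and Ear2, was also highest there, at 499 CPM against 271 to 322 CPM in Smad4iko and 212 and 221 CPM in Smad4fl/fl 3 and 1. The Ear6 to Ear10 and Ang4 to Ear10 ratios of this library, 0.0714 and 0.419, were the lowest and the highest of the 7 libraries. They stood near those of Smad4fl/fl 1, 0.0723 and 0.404. All these ratios have Ear10 as divisor, which was itself lowest in the alveolar macrophages of Smad4fl/fl 2. In the T cells and NK cells of Smad4fl/fl 2, where Ear2 sat at 5.27 and 11.6 CPM, the Ear2 to Ear10 ratio was 3.10 and 4.40, from 20 and 10 Ear10 UMIs, the highest among the 7 and 5 libraries with at least 10 such UMIs. In its B cells the ratio was 1.73, inside the range of the other libraries.

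Between single cells, the 3 genes of the first group varied together. Over the non-cycling alveolar macrophages of each library (593 to 1101 cells, thinned to 4000 UMIs), Pearson's r of log2(UMIs + 1) was 0.51 to 0.56 for Ear1 with Ear2, 0.43 to 0.56 for Ear2 with Ear10 and 0.34 to 0.46 for Ear1 with Ear10. Ang2 with Ang4 had r of 0.19 to 0.39. Ear6, with few UMIs per cell, had a median r of 0.20 with Ear1, 0.23 with Ear2 and 0.19 with Ear10. Ear10 with Ang2 had a median r of 0.06, Ear1 with Ang4 one of 0.11 and Ear2 with Ang4 one of 0.19. Ang had a median r between -0.01 and 0.04 with every other member, at its low level. The Ear2 and Chil3 pair, both abundant, had a median of 0.22. Reads that Ear1, Ear2 and Ear10 can share enter these values, and their part in them was not tested.

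Monocytes expressed Ear1 and Ear2 but held little Ear10. In non-classical monocytes, the patrolling type (2117 cells, 8 of 10 markers highest in this class), Ear2 was 325, 462, 987 and 674 CPM in Smad4iko 1 to 4, against 216, 382 and 291 CPM in Smad4fl/fl 1 to 3. Ear1 was 56.2, 67.1, 188 and 137 CPM in Smad4iko, against 40.8, 42.6 and 32.9 CPM in Smad4fl/fl. For Ear1 the genotypes did not overlap and for Ear2 they did, and Smad4iko 3 and 4 were highest for both. The log2 difference was 1.58 ± 0.44 for Ear1 and 1.02 ± 0.37 for Ear2, and 0.66 and 0.35 without Smad4iko 3 and 4. With predicted doublets kept it was 1.10 for Ear1 and 0.50 for Ear2. Cells were uneven, with 100, 161, 984 and 445 in Smad4iko 1 to 4 and 54, 230 and 143 in Smad4fl/fl 1 to 3.

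Ear10 in non-classical monocytes was 11.6, 14.02, 30.9 and 16.0 CPM in Smad4iko 1 to 4, against 11.7, 20.4 and 3.53 CPM in Smad4fl/fl 1 to 3, from 2 to 205 UMIs a library. The groups overlapped, and the log2 difference of 0.65 ± 0.56 turned to -0.70 when predicted doublets were kept and was 1.93 without Smad4fl/fl 2. Ear6 was 5.01 to 16.8 CPM in Smad4iko and 3.55 to 7.06 CPM in Smad4fl/fl. Ang4, Ang and Ang2 were at 4.11, 1.55 and 1.24 CPM over all libraries. Of the 3 members that passed the low-count filter there, Ear1, Ear2 and Ear10, 0 were called, as against 0.0139% of 7182 genes, which is 1 gene, Emp1, lower in Smad4iko and named after its value was seen, and 576 genes had an unadjusted p under 0.05. All Smad4iko libraries lay above all controls for 1 of the 3 and for 5.83% of genes, and Smad4iko 3 and 4 above the other 5 for 2 of the 3 and for 12.5% of genes. These 3 passed because they are expressed, so the counts do not speak for the other 4 members.

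**Figure D4:**
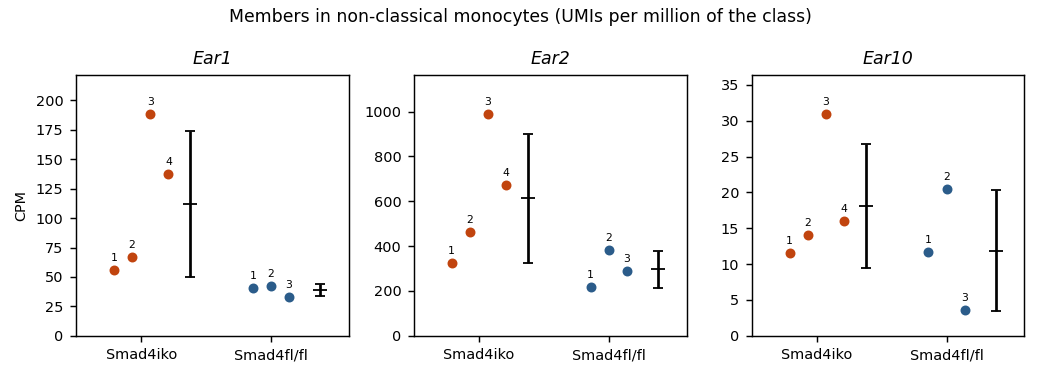
CPM of Ear1, Ear2 and Ear10 in non-classical monocytes, 1 point per library, numbered by replicate, Smad4iko left of Smad4fl/fl, with the mean and SD of each genotype. Smad4iko 3 and 4 are highest for Ear1 and Ear2, and the genotypes do not overlap for Ear1.

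In classical monocytes (591 cells, of which Smad4fl/fl 1 held 3 and is not used), Ear2 was 119.8, 213, 398 and 195 CPM in Smad4iko 1 to 4, against 86.8 and 52.8 CPM in Smad4fl/fl 2 and 3. Ear1 was 22.6, 33.2, 78.4 and 39.7 CPM in Smad4iko, against 9.30 and 14.7 CPM in Smad4fl/fl. The Ear1 values rest on 5 to 150 UMIs a library, and no test was run in this class. Only 4 of 10 classical monocyte markers led in this class.

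The balance of members in monocytes was unlike that in alveolar macrophages. The ratio of Ear2 to Ear10 UMIs was 32.7 over all non-classical monocytes and 18.7 to 42.2 in the 4 libraries with at least 10 Ear10 UMIs there, against 1.73 to 5.28 in alveolar macrophages. With predicted doublets kept, it was 11.9 over all non-classical monocytes. It was 22.7 in classical monocytes and 6.36 in interstitial macrophages, from 57 and 50 Ear10 UMIs. The ratio of Ear1 to Ear2 was 0.173, 0.145, 0.191 and 0.204 in the non-classical monocytes of Smad4iko 1 to 4 and 0.189, 0.112 and 0.113 in those of Smad4fl/fl 1 to 3. In alveolar macrophages it was 0.242, 0.242, 0.294 and 0.302 in Smad4iko and 0.258, 0.160 and 0.186 in Smad4fl/fl, so it was lower in non-classical monocytes in each library. Against Chil3, an abundant alveolar macrophage product, Ear2 stood at 3.70 in non-classical monocytes and 0.409 in alveolar macrophages. In the non-classical monocytes thinned to 2000 UMIs (1825 of 2117 cells), Ear2 was detected in 26.7% to 75.5% of cells by library and Ear10 in 0.917% to 4.76%. Unthinned, at library medians of 2640.0 to 6215 UMIs per cell, the shares were 33.3% to 86.2% for Ear2 and 2.10% to 12.1% for Ear10.

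Lymphocytes held the members at low levels. In T cells, Ear2 was at 11.4 CPM, Ear10 at 6.25, Ear1 at 2.98, Ang4 at 2.496, Ear6 at 0.999, Ang at 0.525 and Ang2 at 0.422 CPM. B cells and NK cells held Ear2 at 13.9 and 14.2 CPM. Ear2 to Ear10 ratios were 1.83 in T cells, 1.596 in B cells, 2.30 in NK cells and 2.22 in neutrophils. In alveolar macrophages the ratio was 2.54 over all libraries. In the same order, the Ear2 to Chil3 ratios were 0.364, 0.355, 0.341, 0.234 and 0.409. Whether the UMIs in lymphocytes and neutrophils came from RNA of other cells was not tested. Thinned to 2000 UMIs, 1.19% to 3.88% of T cells by library held an Ear2 UMI, and 2.53% to 9.13% unthinned at library medians of 4843 to 7284 UMIs. The Ear2 level in non-classical monocytes was above that of T cells in every library, the nearest being 216 CPM against 11.8 CPM, by ratio, in Smad4fl/fl 1.

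Among the other classes with 30 or more cells in all 7 mice, Ear2 was at 25.0 CPM in neutrophils, 7.71 in aCap and 10.7 in gCap (aerocyte and general capillary endothelium), 57.4 in cDC1 and 102 in cDC2 (dendritic cells). Ear1 was at 2.20 to 23.2 CPM, Ear10 at 4.15 to 32.2, Ear6 at 0.508 to 3.72, Ang4 at 1.52 to 16.3, Ang2 at 0.169 to 7.36 and Ang at 0.109 to 1.76 CPM in these 5 classes. The cDC2 values stood at an Ear2 to Ear10 ratio of 3.18. The second highest Ear2 level, 774 CPM, was in 198 erythroid cells, of which Smad4iko 3 and 4 held 107 and 61. Their Ear2 to Ear10 ratio was 2.22 and their Ear2 to Chil3 ratio 0.517, beside 1.99 to 2.09 and 0.378 to 0.496 in the alveolar macrophages of the same libraries. In these 5 classes and in T, B and NK cells, 1 to 5 members passed the low-count filter and 0 were called. Of all genes 0.0205% were called in NK cells, 0.00881% in T cells, 0.0121% in aCap and 0.0205% in gCap, and none in the other 4 classes, where 193 to 637 genes had an unadjusted p under 0.05 in edgeR.

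**Figure D5:**
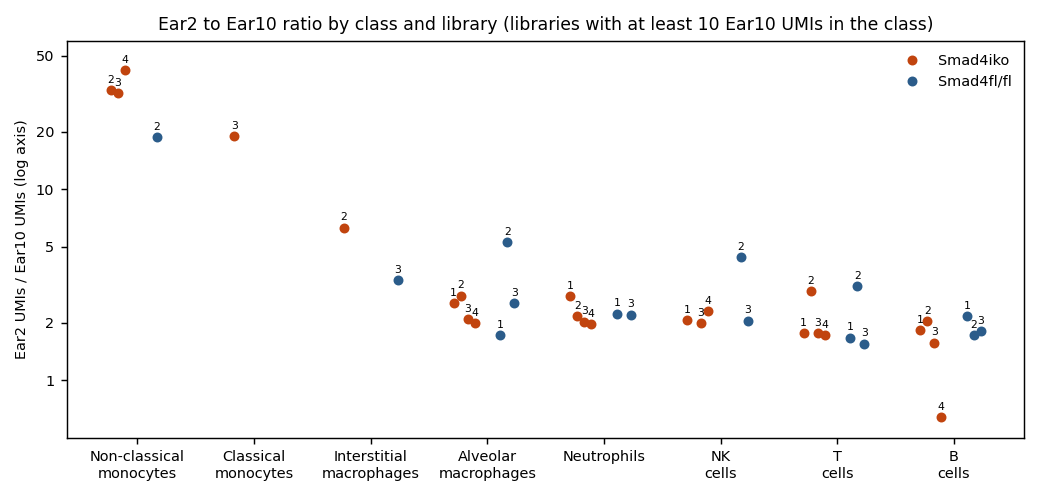
Ratio of Ear2 to Ear10 UMIs (log axis) by class, 1 point per library with at least 10 Ear10 UMIs in the class, numbered by replicate, Smad4iko left of Smad4fl/fl. Non-classical monocytes sit at 18.7 to 42.2, alveolar macrophages at 1.73 to 5.28, and lymphocytes and neutrophils at 0.640 to 4.40.

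Ang, the gene that encodes angiogenin itself, was distributed otherwise. Its highest level was in AT2 cells, the surfactant-producing epithelium (109 cells, 10 of 10 markers highest in this class), at 76.3 CPM over all libraries with a 95% Poisson interval of 63.1 to 91.6. That interval covers counting error only. By library it was 64.5, 93.2, 157 and 76.5 CPM in Smad4iko 1 to 4, from 2 to 27 UMIs, against 67.6, 67.7 and 82.6 CPM in Smad4fl/fl 1 to 3, from 10 to 44 UMIs. The genotypes overlapped, and with 6, 2, 8 and 22 AT2 cells in Smad4iko and 49, 15 and 7 in Smad4fl/fl no difference could be detected. Other levels over all libraries were 32.4 CPM in lymphatic endothelium (12 UMIs), 12.6 in adventitial fibroblasts, 11.9 in interstitial macrophages and 7.48 in alveolar fibroblasts. Adventitial fibroblasts held 12.1% and alveolar fibroblasts 8.36% of all Ang UMIs.

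Rnase4, which in mice is transcribed from promoters shared with Ang and overlaps it here, had the same leading class. It was at 1226, 1631, 1518 and 1240.2 CPM in the AT2 cells of Smad4iko 1 to 4, against 937, 812 and 1104 CPM in those of Smad4fl/fl 1 to 3. Adventitial fibroblasts and lymphatic endothelium followed at 615 and 614 CPM. Over the 28 classes with at least 50 cells, Ang had its highest likeness to Rnase4 (Pearson's r of log2(CPM + 1), 0.89). The ranking drew on 14494 genes, with the members left out. Ang and Rnase4 share strand and locus, so that reads of the one can fall in the annotation of the other. The other members had negative r with Rnase4, from -0.09 to -0.27.

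The same ranking, again without the members, put Chil3 nearest to Ear1, Ear2 and Ear6, with r of 0.92, 0.93 and 0.90. Ear10 was most like Fabp1 (0.94), Atp6v0d2 (0.93) and Ang5 (0.93), Ang2 most like Tmem229a (0.95) and Ang4 most like Atp6v0d2 (0.94). These profiles share libraries and the 1 class in which most of these genes peak.

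Of the other RNase A superfamily genes, 18 were listed and 13 were in the count tables. In alveolar macrophages 4 passed the low-count filter, Rnase2a, Rnase4, Rnase6 and Ang5, and 0 were called. Their median log2 difference was 0.31, beside -0.00 over all genes, and 3 of the 4 had Smad4iko 3 and 4 above the other 5 libraries, as had 26.6% of all genes. Rnase4, a superfamily member found in many tissues, was 48.0, 48.9, 57.3 and 59.95 CPM in Smad4iko 1 to 4, against 38.8, 36.7 and 46.2 CPM in Smad4fl/fl 1 to 3. The groups did not overlap, but the log2 difference of 0.32 ± 0.12 did not pass edgeR's test with Benjamini-Hochberg adjustment over all genes (adjusted p = 0.696). Ang5 had a log2 difference of -0.16 ± 0.28 (adjusted p = 0.942, edgeR), and 0.36 without Smad4fl/fl 2. Rnase2a was 12.1 ± 5.51 CPM in Smad4iko and 7.11 ± 1.99 CPM in Smad4fl/fl (SD, n = 4 and 3), with 0.67 ± 0.33 on the log2 scale (adjusted p = 0.794, edgeR).

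Rnh1, the inhibitor that binds these enzymes in the cytosol, was 253, 235, 150.5 and 197 CPM in the alveolar macrophages of Smad4iko 1 to 4, against 254, 200.1 and 175 CPM in those of Smad4fl/fl 1 to 3. Smad4iko 3 was lowest, the genotypes overlapped, and the log2 difference was -0.06 ± 0.21 (adjusted p = 0.972, edgeR). None of the further lists had a gene called in alveolar macrophages. The 24 alveolar macrophage identity genes had 11 higher and 13 lower in Smad4iko, with a median log2 difference of -0.05, 5 of the 24 with Smad4iko 3 and 4 highest, beside 26.6% of all genes. The 8 secreted host defence genes tested had a median of 0.23, the 6 genes of RNase inhibitor and RNase T2 one of -0.04, the 2 angiogenin partners one of 0.09 and the 3 eosinophil markers tested, of 9, one of 0.10. In non-classical monocytes the same lists had 1 to 15 genes tested and 0 called, and the 2 RNase A genes tested, Rnase4 and Rnase6, had a median of 0.43.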

How the data were processed

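Single-cell 3′ libraries of 7 mouse lungs were used, each a separate mouse per the labels. The deposited matrices hold raw UMI counts for each gene in each cell barcode, written by Cell Ranger 6.1.1 per the file headers. The submitters' processing notes name fastp, UMI-tools and mm10 without their roles. The order of steps is not given in the sources used here.

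Cells with at least 300 genes, 600 UMIs and at most 20% mitochondrial UMIs were kept (50955 of 55671 barcodes), and 1284 doublets predicted by Scrublet at an expected rate of 6% (2.52%) were removed. Cells were clustered in scanpy 1.11.5 with leidenalg 0.10.2 (2000 variable genes without the RNase A superfamily, 40 components, 15 neighbours, resolution 1, mixed clusters split at 0.5) and named from 31 marker sets. That gave 29 classes and left 964 cells (1.94%) unnamed, and the naming rule was tightened after the clusters were seen. Class names are rebuilt and not the authors'.

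UMIs were summed per library and class, so the mouse is the replicate. CPM divide by all UMIs of the class. Genes were tested with edgeR 4.0.16 (filterByExpr, TMM, quasi-likelihood, Benjamini-Hochberg at 0.05) in the 10 classes that reached 30 cells in all 7 mice, and the procedure was tested on simulated data. DESeq2 1.42.0 was an alternative. An SE is that of edgeR's log2 difference. Promoters are RefSeq's (GRCm38.p6; 6 of 7 members matched) and coordinates GENCODE M21, which matched 31107 of 31253 gene IDs.

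The members, lists and tests were chosen with earlier results of these data known. The text names all members, and of other genes those of the lists that are called or are RNase A genes or Rnh1, and the nearest by likeness. For each ratio of members and each comparison of levels, 10 alternatives were added after seeing the data. The restrictions of alveolar macrophages to non-cycling cells and to the larger non-cycling cluster were also added then. Intervals on counts cover counting error only.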

Additional observations from a re-analysis of the deposited data

How the results depend on the processing

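The number of genes called for genotype in alveolar macrophages was 2, and 47 with DESeq2 (own filter, 19274 genes), 9 with no low-count filter, 10 with a covariate for Smad4iko 3 and 4, 5 with the replicate block, 19 with Smad4iko 1 and 2 only, and 2 to 5 with 1 library left out, the highest without Smad4fl/fl 3. In non-classical monocytes it was 1, and 6 with DESeq2, 44 with no low-count filter, 2 with the replicate block, 0 with the covariate, with Smad4iko 1 and 2 only or with the stricter cell filter, and 0 to 4 with 1 library left out (0 without Smad4fl/fl 2 or 3 or Smad4iko 3 or 4, 2 without Smad4iko 1, 4 without Smad4iko 2). The cause was not tested. Same-numbered libraries deviated from their group means with r of 0.18, -0.11 and 0.17, and differently numbered ones with r of -0.18 to 0.16. So few values cannot tell whether the replicate numbers pair the mice, and a pairing is not given in the sources used here. The log2 differences of Ear1, Ear2, Ear6, Ear10, Ang2 and Ang4 in alveolar macrophages were above 0 in all 18 alternatives, over 0.44 to 1.01, 0.09 to 0.68, 0.67 to 1.13, 0.25 to 0.85, 0.38 to 0.98 and 0.24 to 0.69. The lowest came with the covariate for Smad4iko 3 and 4, or, for Ang4, in the larger cluster alone. That of Ang ran from -0.17 to 0.31. In non-classical monocytes Ear1 ran from 0.65 to 1.77, Ear2 from 0.34 to 1.27 and Ear10 from -0.70 to 1.93. These alternatives reuse the same mice, and the members were picked with this contrast known, so nothing is read from a constant sign. The covariate for Smad4iko 3 and 4 and the use of Smad4iko 1 and 2 only also make nearly the same comparison.

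With doublets kept, the alveolar macrophage share was 94.9% for Ear10, 95.8% for Ang2 and 94.7% for Ang4. Left-out libraries gave shares of 94.6% to 96.5% for Ear1, 93.4% to 96.04% for Ear2, 93.7% to 95.3% for Ear6, 96.6% to 97.4% for Ear10, 26.3% to 32.6% for Ang, 97.6% to 98.2% for Ang2 and 96.3% to 97.1% for Ang4. The ratio of mean CPM, Smad4iko over Smad4fl/fl, of Ear2 in alveolar macrophages was 1.32, and 1.14 to 1.69 with 1 library left out, the highest without Smad4fl/fl 2. That of Ear10 in non-classical monocytes was 1.53, and 2.45 with the stricter cell filter, 0.406 with doublets kept and 1.13 to 2.38 with 1 library left out. Few Ear10 UMIs in monocytes, 54 cells of that class in Smad4fl/fl 1 and 2 AT2 cells in Smad4iko 2 limit what could be seen there.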
